A study of Prunus persica with 25 samples.

Results

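Vegetative buds of the peach cultivar Fantasia were compared between the first 200 chilling units of a winter (200CU) and the last collection before any effective chilling (Pre0CU). The comparison was chosen by its sampling stages and not by any measured value, and it took 6 of the 25 libraries of the series, 3 at 200CU and 3 at Pre0CU. A chilling unit stands for an hour at an effective cool temperature in the Utah model, and 200CU was reached in early November, whereas Pre0CU was collected in early September of the same year. Both groups were untreated axillary buds of mature orchard trees of one genotype, taken from the centre of bud triplets, freed of their outer scales, and formed into biological replicates from a few trees per collection. Each stage is 1 date in 1 year, so that chilling, shorter days, cooler temperature and bud age cannot be told apart in the differences below, and p-values measure only the spread between libraries of one date. The other libraries of the series cover later stages, another winter and flower buds.

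Buds of temperate trees stop growing in late summer and become dormant, a state in which the enclosed shoot apex does not resume growth even in warm conditions until enough chilling has been received. In peach, a tandem run of DORMANCY-ASSOCIATED MADS-BOX (DAM) genes, related to the flowering repressor SVP (Short Vegetative Phase) of Arabidopsis, is missing in part in a mutant that never enters dormancy, and the abundance of these transcripts follows the seasons in many Prunus species. Abscisic acid (ABA) is known for holding growth back and for closing the cell-to-cell channels of the bud, gibberellin (GA) for promoting growth and release, and jasmonate (JA) for defence and stress responses. The shoot apical meristem inside the bud is kept by homeobox genes of the KNOX and WOX families.

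The 200CU libraries held 50762076, 49739957 and 53645419 counted reads, against 47016108, 52971395 and 52065385 in the Pre0CU libraries. Levels are given as CPM, the usual scale of a gene's counts relative to the size of its library, with edgeR's TMM factors, and they are not adjusted for gene length. Replicates differed more within 200CU, where the chi-square per gene between pairs of libraries was 12.9 to 38.6, than within Pre0CU, where it was 3.10 to 4.22, and libraries 1 and 3 of 200CU were the pair farthest apart. The labelled tissue was checked against markers. The 5 shoot meristem markers were detected in every library and summed to 112, 124 and 121 CPM at 200CU, against 330.2, 331 and 312 CPM at Pre0CU, with all 5 called lower. KNAT7 and TPR4, which the study also lists under shoot meristem, were not in this set and were called higher, as given further on. The 3 floral markers LFY, AGL79 and AGL20B, which would mark flower buds among the sampled buds, summed to 12.9, 17.8 and 31.2 CPM at 200CU, against 18.2, 18.6 and 17.1 CPM at Pre0CU. In the edgeR fit described below 0 of these 3 were called, with 1 at an unadjusted p below 0.05, and DESeq2 called 0. That gene was LFY, with 3.74, 7.53 and 15.4 CPM at 200CU, against 2.95, 3.86 and 3.04 CPM at Pre0CU. Fitted to only the 6 libraries compared, edgeR called LFY higher (log2 fold change 1.44, adjusted p = 0.019). LFY was also called higher without the 475CU libraries (1.44, adjusted p = 0.0076) and without library 1 of 200CU (1.80, adjusted p = 0.024). The floral check therefore depended on the libraries fitted. In the 475CU libraries, which the edgeR fit below includes, the 3 floral markers summed to 48.6, 45.3 and 12.3 CPM. The phloem, xylem and green leaf markers were searched only among genes with a description in the study's tables, as set out further on. Of all those described genes, 37.4% were called lower and 8.46% higher, so falls among the markers are favoured by the source. The 9 phloem markers summed to 818, 794 and 557 CPM at 200CU, against 3490.1, 3673 and 3831 CPM at Pre0CU, with 7 called lower. The 3 SIEVE ELEMENT OCCLUSION genes made most of this sum (692, 666 and 430.3 CPM at 200CU, against 3306, 3491 and 3651 CPM at Pre0CU), and the other 6 summed to 125, 128 and 126 CPM at 200CU, against 184, 182 and 179 CPM at Pre0CU, with 4 called lower. Of those, PRUPE_1G003600, PRUPE_1G003700, PRUPE_2G156400 and PRUPE_2G290600 are annotated as F-box proteins and were matched by the name phloem protein 2. Whether they mark phloem is not given in the sources used here. The 3 xylem markers summed to 337, 353 and 334 CPM at 200CU, against 280.3, 275 and 281 CPM at Pre0CU, with 1 called lower, and the 5 green leaf markers to 556, 633 and 736 CPM at 200CU, against 450.4, 439 and 436 CPM at Pre0CU, with 2 called higher. Those 2 have consecutive IDs, PRUPE_3G174600 and PRUPE_3G174700. The others, PRUPE_1G225700, PRUPE_2G248900 and PRUPE_3G004100, were not called (log2 fold changes -0.16, -0.028 and 0.39). A separate list of light harvesting and photosystem genes had 0 of 5 called higher and 1 lower. Most of the xylem sum was PRUPE_1G587900, a glycosyl hydrolase matched by its symbol IRX2, with means of 314 CPM at 200CU and 253 CPM at Pre0CU. That sum is therefore mainly the level of 1 gene. No marker was at 0 in any library, and the part of such shifts in the results below was not tested. In whole buds, fewer cells of a type and less RNA per cell cannot be told apart.

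Entry into the chilling period came with a broad shift of the transcriptome in which falls were more frequent and larger than rises. A gene was called when edgeR's quasi-likelihood test, fitted to the 12 vegetative bud libraries of that year, gave an adjusted p below 0.05 (Benjamini-Hochberg) and the fold was above 1.4. Of 26743 genes tested, 5982 were called (22.4%), 2358 higher (8.82%) and 3624 lower (13.6%) at 200CU. The CPM of the groups did not overlap for 14206 genes (53.1%), and 5896 of the called genes were among them. More than 4-fold, 102 genes were higher and 322 lower, and more than 16-fold, 10 were higher and 28 lower. The genes called higher took 19.3% of the reads at 200CU, against 10.3% at Pre0CU, and the genes called lower took 8.54% at 200CU, against 18.1% at Pre0CU. The median log2 fold change of all genes tested was -0.0071. Among the 14660 genes with an average log2 CPM of 3 or more, the median coefficient of variation was 6.56% within 200CU and 3.46% within Pre0CU.

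The genes with the largest changes are known here mostly by their IDs, since names were at hand for 762 of the 5982 called genes. Of the 20 largest rises among genes with an average log2 CPM of 3 or more and no overlap, 0 had a name, and of the 20 largest falls 2 had one. The unnamed PRUPE_2G139400 had 177, 175 and 143 CPM in 200CU libraries, against 3.27, 4.30 and 3.25 CPM in Pre0CU libraries, a 45.6-fold rise (log2 fold change 5.51 ± 0.14 (SE), adjusted p = 4.1e-12). The unnamed PRUPE_4G049600 had 1882, 1936 and 2428 CPM in 200CU libraries, against 52.5, 59.7 and 64.9 CPM in Pre0CU libraries (log2 fold change 5.14 ± 0.15 (SE), adjusted p = 1.5e-11). In the other direction, PRUPE_4G200000 had 1.47, 1.51 and 0.654 CPM in 200CU libraries, against 239, 233 and 218 CPM in Pre0CU libraries (log2 fold change -7.58 ± 0.35 (SE), adjusted p = 1.5e-09). PRUPE_1G498800, the fourth of these, had 2.29, 2.31 and 2.67 CPM in 200CU libraries, against 133, 136 and 131 CPM in Pre0CU libraries (log2 fold change -5.78 ± 0.086 (SE), adjusted p = 5.2e-14). All 4 were separated by more than 10 times between every library of one group and every library of the other. Their function is not given in the sources used here.

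Among genes with a name and an average log2 CPM of 3 or more, the largest fall was in MLP-like protein 329 (PRUPE_1G327500), one of the major latex protein relatives. It had 1.45, 1.24 and 1.25 CPM in 200CU libraries, against 47.5, 44.5 and 44.6 CPM in Pre0CU libraries, which is 34.6-fold lower (log2 fold change -5.11 ± 0.16 (SE), adjusted p = 4.0e-11). NCED3 followed, then GA2ox1, MLP-like protein 28 (PRUPE_1G329000, log2 fold change -3.31 ± 0.13) and a SIEVE ELEMENT OCCLUSION B gene (PRUPE_1G028800). The last of these, which encodes a phloem filament protein, had 230.3, 221 and 127 CPM in 200CU libraries, against 1846, 1921 and 1914 CPM in Pre0CU libraries (log2 fold change -3.30 ± 0.18 (SE), adjusted p = 7.7e-09). At Pre0CU its CPM was the 7th highest among the called genes, and the other 2 genes of that annotation fell too, by 2.55 and 1.66 on the log2 scale. An Hsp70 chaperone (PRUPE_2G233500), a protein-folding factor, had 252, 271 and 205 CPM in 200CU libraries, against 1603, 1542 and 1491 CPM in Pre0CU libraries (log2 fold change -2.67 ± 0.12 (SE), adjusted p = 8.1e-10). The Hsp40 co-chaperone PRUPE_2G072900 fell with it, to 902, 936 and 864 CPM at 200CU, against 2205, 2192 and 2241 CPM at Pre0CU (log2 fold change -1.30 ± 0.052 (SE), adjusted p = 3.2e-10). The subunit NDUFS4 of mitochondrial complex I (PRUPE_1G421800) fell by 2.79 on the log2 scale, a DREB factor (PRUPE_2G289600) by 2.94 and a PLAC8-type cell number regulator (PRUPE_1G043300) by 3.24.

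Among genes with a name and an average log2 CPM of 3 or more, the rises were smaller than the falls. Nearly all names come from a module of the study in which more genes fell than rose, described further on, so this contrast follows the source of the names. GA3ox1, of GA synthesis, led these rises, followed by PRUPE_1G544000, a protein of unknown function with a DUF1005 domain (log2 fold change 2.03 ± 0.12), and the MADS-box gene PRUPE_1G531600. The cyclin CYCP4;1 homologue PRUPE_2G121600, of a class of cyclins tied to phosphate and sugar signals in other organisms, had 27.6, 40.7 and 47.0 CPM in 200CU libraries, against 11.6, 11.2 and 11.1 CPM in Pre0CU libraries (log2 fold change 1.77 ± 0.21 (SE), adjusted p = 1.3e-05). The light-harvesting protein gene PRUPE_3G174600, annotated as a component of photosystem II antennae, had 30.6, 41.1 and 57.1 CPM in 200CU libraries, against 14.7, 12.4 and 12.9 CPM in Pre0CU libraries (log2 fold change 1.69 ± 0.29 (SE), adjusted p = 2.7e-04). For both of these the 200CU libraries spread widely and stayed above all Pre0CU libraries. A BURP domain gene related to the dehydration-responsive RD22 of Arabidopsis (PRUPE_1G475800) had 1905, 1993 and 2429 CPM in 200CU libraries, against 709, 726 and 682 CPM in Pre0CU libraries (log2 fold change 1.58 ± 0.19 (SE), adjusted p = 1.0e-05). The aspartyl protease PRUPE_2G038800 had 780.0, 813 and 714 CPM in 200CU libraries, against 286, 285 and 284 CPM in Pre0CU libraries (log2 fold change 1.43 ± 0.10 (SE), adjusted p = 6.3e-08). Genes with many reads and smaller changes included alpha-tubulin TUA2 (PRUPE_1G542600, log2 fold change 0.66 ± 0.053), which is a cytoskeleton subunit, and the translationally controlled tumor protein homologue PRUPE_1G134900 (-1.35 ± 0.048), which promotes growth in plants and animals.

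**Figure D1:**
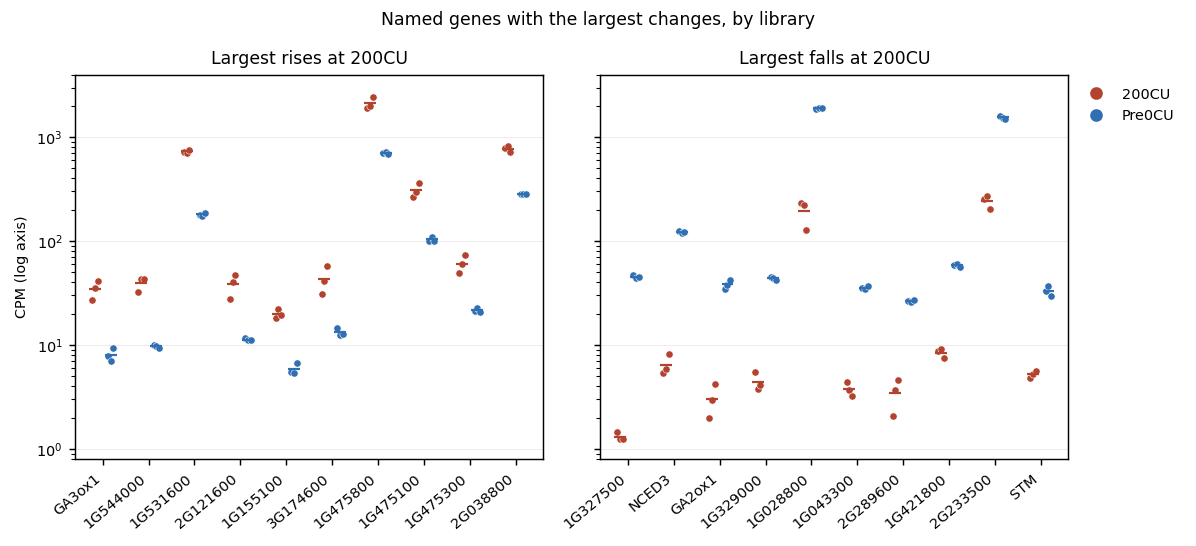
CPM on a log axis of the 10 named genes with the largest rises (left) and the 10 with the largest falls (right) among genes with an average log2 CPM of 3 or more, with each point 1 library, the line the mean of 3 libraries, red 200CU and blue Pre0CU, and names shortened to the ID without its prefix where no symbol was given. The groups do not overlap for any of the 20 genes, and the falls span a wider range, as in MLP-like protein 329 (1G327500), whose log2 fold change was -5.11.

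The run of IDs taken as the DAM genes split into 3 members that rose, 1 that fell and 3 that stayed below the fold threshold. The files give IDs only and the sources used here do not pair them with DAM numbers, so the 7 consecutive IDs PRUPE_1G531100 to PRUPE_1G531700 were taken here as the run. Of these, 4 are described as MADS-box factors, and PRUPE_1G531200, PRUPE_1G531300 and PRUPE_1G531500 have no description in the sources used here. The study names DAM1 to DAM6, fewer genes than the IDs of the run, so not every ID can be one of its DAM genes. The largest rise was in PRUPE_1G531600, with 719.7, 710.1 and 753 CPM in 200CU libraries, against 179, 175 and 188 CPM in Pre0CU libraries, a 4.03-fold difference (log2 fold change 2.01 ± 0.045 (SE), adjusted p = 2.4e-12). Its neighbour PRUPE_1G531500 had 173, 174 and 181 CPM in 200CU libraries, against 50.4, 46.6 and 51.5 CPM in Pre0CU libraries (log2 fold change 1.83 ± 0.055 (SE), adjusted p = 2.3e-11). The member with the most reads was PRUPE_1G531700, with 1565, 1502 and 1426 CPM in 200CU libraries, against 616, 622 and 656 CPM in Pre0CU libraries (log2 fold change 1.25 ± 0.068 (SE), adjusted p = 6.5e-09). In these 3 genes the lowest 200CU library lay more than 2 times above the highest Pre0CU library. At the other end of the run, PRUPE_1G531100, whose closest Arabidopsis relative is annotated as AGL24, had 67.3, 65.3 and 67.8 CPM in 200CU libraries, against 199, 194 and 201 CPM in Pre0CU libraries (log2 fold change -1.57 ± 0.048 (SE), adjusted p = 2.5e-11). The 3 members between them differed little. PRUPE_1G531200 had 35.3, 34.7 and 35.8 CPM at 200CU, against 26.4, 25.1 and 25.5 CPM at Pre0CU, without overlap and with a fold below 1.4 (log2 fold change 0.46 ± 0.051 (SE), adjusted p = 6.3e-06). PRUPE_1G531400 had 84.1, 84.4 and 88.0 CPM at 200CU, against 74.6, 73.1 and 76.9 CPM at Pre0CU (log2 fold change 0.19), and PRUPE_1G531300 had 52.3, 51.1 and 52.5 CPM at 200CU, against 54.3, 50.9 and 51.9 CPM at Pre0CU (log2 fold change -0.012). Reads of near-identical copies in such a run may have been assigned to more than one of them, which was not tested.

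Neither SVP gene was called. SVP1 (PRUPE_6G199000) had 115, 101 and 96.2 CPM at 200CU, against 123, 118 and 118 CPM at Pre0CU (log2 fold change -0.20 ± 0.076, adjusted p = 0.043), and SVP2 (PRUPE_8G069300) had 150.2, 139.8 and 159 CPM at 200CU, against 113, 107 and 117 CPM at Pre0CU (log2 fold change 0.41 ± 0.066, adjusted p = 1.6e-04). Both had separate groups, with SVP1 lower and SVP2 higher at 200CU, at folds below 1.4. The study took SVP1 from its authors' earlier work on flower buds and identified SVP2 in its vegetative bud data. The direction of SVP2 is therefore no independent evidence.

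**Figure D2:**
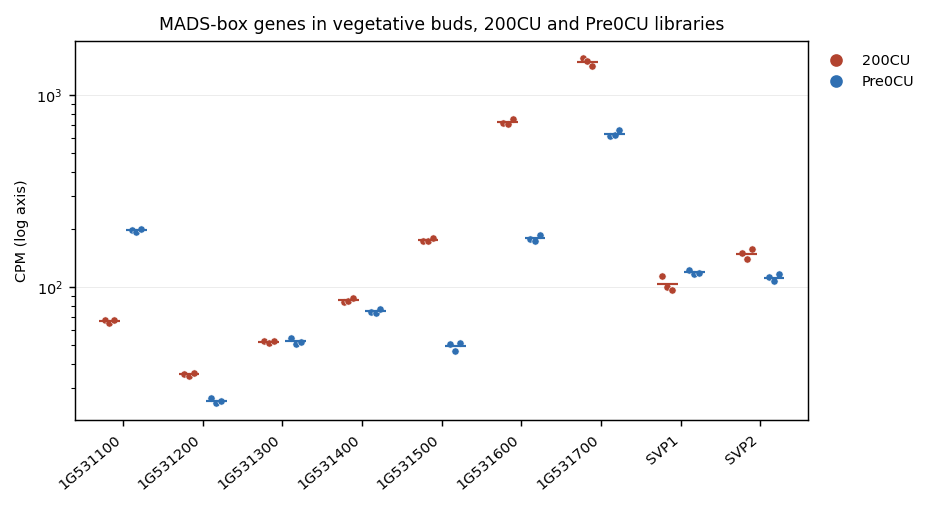
CPM on a log axis of the 7 consecutive IDs taken as the DAM run (prefix left out) and the 2 SVP genes, with each point 1 library, the line the mean of 3 libraries, red 200CU and blue Pre0CU. 1G531500, 1G531600 and 1G531700 lie higher at 200CU and 1G531100 lower, while 1G531300 overlaps between the groups.

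In the ABA list, the synthesis genes NCED3 and ABA2 and all 5 genes of receptor recruitment fell, while the gene of a catabolic hydroxylase rose. The study's list holds 24 genes, of which 11 were called lower (45.8%, beside 13.6% of all genes tested) and 4 higher (16.7%, beside 8.82%), with a median log2 fold change of -0.36, beside -0.0071 over all genes tested. NCED3 (PRUPE_4G150100), the dioxygenase that sets the pace of ABA synthesis, had 5.31, 5.81 and 8.16 CPM in 200CU libraries, against 126, 121 and 122 CPM in Pre0CU libraries. That is 19.1-fold lower at 200CU (log2 fold change -4.26 ± 0.15 (SE), adjusted p = 7.6e-11), the largest change of any hormone gene followed here. ABA2 (PRUPE_6G138600), the dehydrogenase of a later step, had 8.06, 9.71 and 9.27 CPM in 200CU libraries, against 22.4, 22.7 and 23.4 CPM in Pre0CU libraries (log2 fold change -1.34 ± 0.095 (SE), adjusted p = 7.7e-08), and the zeaxanthin epoxidase ABA1A fell by 0.75 on the log2 scale. ABA3, the sulfurase that activates the cofactor of the last step, was not called (log2 fold change 0.31 ± 0.052), nor was the second epoxidase ABA1B (-0.016 ± 0.071). On the side of breakdown, the hydroxylase CYP707A2 (PRUPE_6G072400) had 16.8, 23.5 and 30.7 CPM in 200CU libraries, against 9.65, 13.8 and 12.2 CPM in Pre0CU libraries (log2 fold change 0.99 ± 0.18 (SE), adjusted p = 4.7e-04). The glucosyltransferase UGT71B6-likeB, of ABA conjugation, was also higher (log2 fold change 0.64 ± 0.13).

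All 5 CAR-like genes, whose Arabidopsis relatives bring ABA receptors to the membrane, were called lower, with log2 fold changes between -1.43 (CAR-likeA) and -0.69 (CAR-likeD). CAR-likeA (PRUPE_1G329300) had 21.4, 21.4 and 23.5 CPM in 200CU libraries, against 59.6, 58.4 and 60.7 CPM in Pre0CU libraries (log2 fold change -1.43 ± 0.069 (SE), adjusted p = 1.8e-09). Of the receptors themselves, PYL2 rose, with 10.6, 11.7 and 11.8 CPM at 200CU, against 6.48, 6.02 and 4.98 CPM at Pre0CU (log2 fold change 0.97 ± 0.11 (SE), adjusted p = 9.1e-06), and PYL4 was not called (2.53, 2.76 and 3.41 CPM at 200CU, against 3.02, 2.08 and 1.78 CPM at Pre0CU). Downstream, ABI1, a phosphatase that restrains the pathway, had 149, 157 and 217 CPM at 200CU, against 274, 274 and 278 CPM at Pre0CU (log2 fold change -0.66 ± 0.10 (SE), adjusted p = 9.9e-05). EAR1, another restraining factor in Arabidopsis, fell furthest among signalling genes, with few reads behind it, at 0.699 ± 0.189 CPM at 200CU and 6.06 ± 0.315 CPM at Pre0CU (SD, n = 3 each, log2 fold change -3.11 ± 0.33 (SE), adjusted p = 4.0e-06). The transcription factor AREB2/ABF4 fell by 1.03 on the log2 scale, whereas ABF1, AREB1/ABF2, ABI5 and the kinase SnRK2.6/OST1, which carries the signal, were not called. CAR-likeB, CAR-likeC and CAR-likeE carry neighbouring IDs, so that reads of similar copies may be shared among them.

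The GA list was split evenly, with 5 of its 14 genes called higher (35.7%, beside 8.82% of all genes tested) and 5 lower (35.7%, beside 13.6%), with a median log2 fold change of -0.27. GA3ox1 (PRUPE_1G467600), which catalyses the last step to bioactive GA, had 27.2, 35.5 and 41.1 CPM in 200CU libraries, against 7.81, 6.94 and 9.37 CPM in Pre0CU libraries, 4.30-fold higher at 200CU (log2 fold change 2.10 ± 0.17 (SE), adjusted p = 2.7e-07). In the opposite direction, GA2ox1 (PRUPE_4G150200), which inactivates GA, had 1.97, 2.93 and 4.19 CPM in 200CU libraries, against 34.8, 38.1 and 41.8 CPM in Pre0CU libraries, 12.6-fold lower (log2 fold change -3.65 ± 0.25 (SE), adjusted p = 5.3e-08). The levels of both groups stood well apart for both genes. A further GA 2-oxidase did the reverse of GA2ox1: GA2ox6 (PRUPE_1G111900) had 129, 143 and 153 CPM at 200CU, against 70.4, 75.8 and 73.6 CPM at Pre0CU (log2 fold change 0.95 ± 0.059 (SE), adjusted p = 2.3e-08). GA2ox2 was not called (117, 121 and 80.3 CPM at 200CU, against 125, 136 and 143 CPM at Pre0CU). Early steps differed among themselves, since KO, the ent-kaurene oxidase, was lower (18.1, 17.6 and 13.9 CPM at 200CU, against 41.6, 39.5 and 43.4 CPM at Pre0CU, log2 fold change -1.33 ± 0.10 (SE), adjusted p = 8.9e-08), GA1, which starts the pathway, was higher (log2 fold change 0.62 ± 0.11), and KS was not called (-0.25 ± 0.069). GA20ox2 was called higher (log2 fold change 0.55 ± 0.18) and lost the call in 5 of the alternative fits, 4 of which left out a single library. The receptor GID1B had 368, 382 and 417 CPM at 200CU, against 588, 618 and 622 CPM at Pre0CU (log2 fold change -0.65 ± 0.058 (SE), adjusted p = 8.5e-07). Among the DELLA proteins, which hold GA responses back, RGA was lower (log2 fold change -0.64 ± 0.048), RGL1 was higher (0.88 ± 0.17), and RGL2 was not called (-0.089 ± 0.078). NCED3 and GA2ox1 have consecutive IDs, PRUPE_4G150100 and PRUPE_4G150200, and their counts were not near equal in any sense used below.

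**Figure D3:**
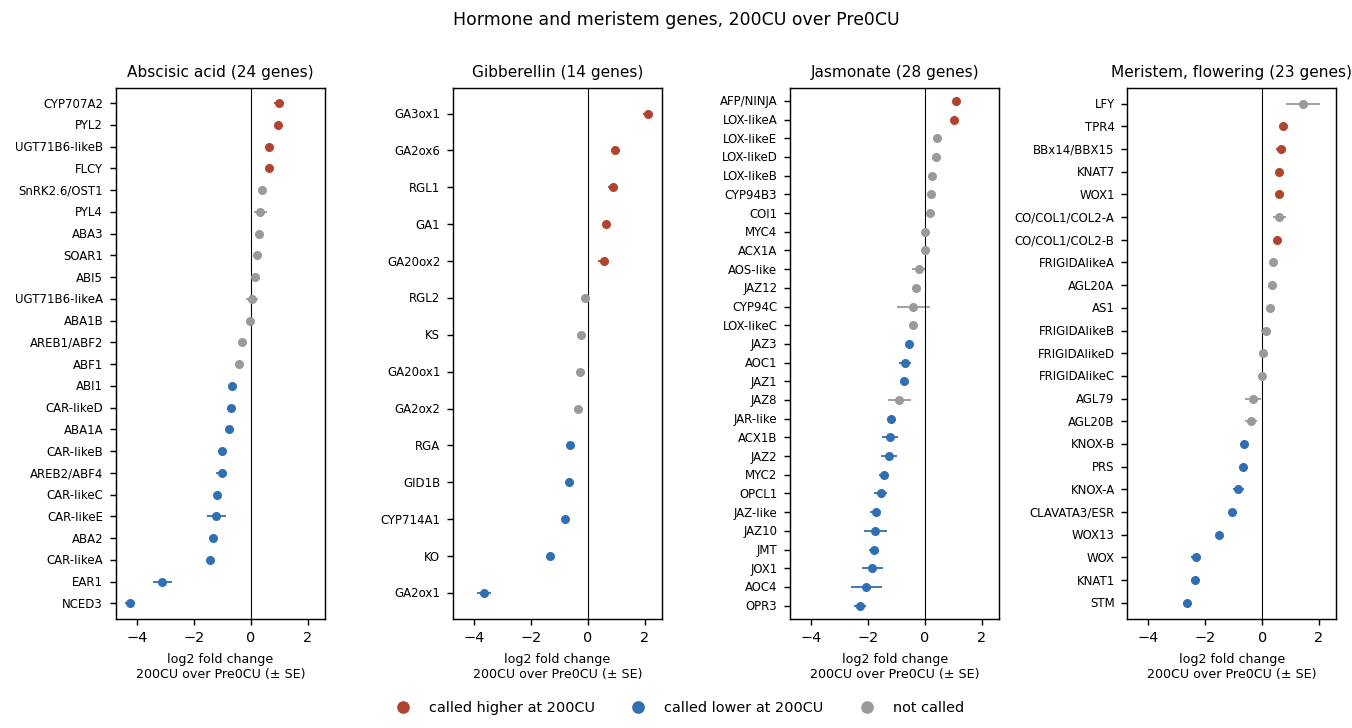
Log2 fold change of 200CU over Pre0CU (x axis, bars are SE) of the study's ABA (24), GA (14), JA (28) and meristem and flowering (23) genes, ordered by size, in red where called higher, blue where called lower and grey where not called. NCED3 (-4.26) and GA2ox1 (-3.65) lie farthest to the left and GA3ox1 (2.10) farthest to the right.

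The JA list moved mostly downward, in signalling and in synthesis: 14 of 28 genes were called lower (50%, beside 13.6% of all genes tested) and 2 higher (7.14%, beside 8.82%), with a median log2 fold change of -0.63. In signalling, MYC2 (PRUPE_5G035400), the central transcription factor of the pathway, had 94.8, 133 and 179 CPM in 200CU libraries, against 348, 366 and 398 CPM in Pre0CU libraries (log2 fold change -1.45 ± 0.17 (SE), adjusted p = 1.2e-05). Of the 7 JAZ repressors, which are themselves induced by JA, 5 were called lower. JAZ10 had 22.6, 46.6 and 60.1 CPM at 200CU, against 139, 143 and 149 CPM at Pre0CU (log2 fold change -1.74 ± 0.42 (SE), adjusted p = 0.0036), and JAZ2 had 71.7, 138 and 198 CPM at 200CU, against 314, 318 and 357 CPM at Pre0CU (log2 fold change -1.28 ± 0.28 (SE), adjusted p = 0.0018). JAZ1 had 531, 628 and 704 CPM at 200CU, against 1009, 1034 and 1031 CPM at Pre0CU (log2 fold change -0.72 ± 0.10 (SE), adjusted p = 5.9e-05). JAZ-like and JAZ3 were also lower, at log2 fold changes of -1.73 ± 0.19 and -0.55 ± 0.076. JAZ8 and JAZ12 were not called, at -0.90 ± 0.39 and -0.33 ± 0.047, and with the replicate block JAZ8 was called lower (-1.07, adjusted p = 0.022). The receptor subunit COI1 was not called (73.4, 79.8 and 69.1 CPM at 200CU, against 66.8, 66.2 and 65.3 CPM at Pre0CU), and AFP/NINJA, an adaptor that links JAZ proteins to co-repressors, was higher (18.3, 23.2 and 17.7 CPM at 200CU, against 8.77, 9.29 and 9.49 CPM at Pre0CU, log2 fold change 1.10 ± 0.10 (SE), adjusted p = 9.7e-07).

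Of the 14 JA synthesis genes, 7 were called lower and 1 higher. The gene the study labels OPR3 (PRUPE_3G039200), which another of its lists describes as a 13-lipoxygenase, had 82.6, 115 and 188 CPM in 200CU libraries, against 608, 625 and 633 CPM in Pre0CU libraries (log2 fold change -2.28 ± 0.21 (SE), adjusted p = 9.5e-07). AOC4, an allene oxide cyclase, had 80.9, 112 and 135 CPM at 200CU, against 463, 439 and 461 CPM at Pre0CU (log2 fold change -2.06 ± 0.53 (SE), adjusted p = 0.0059). OPCL1 and ACX1B, of the later chain-shortening steps, were lower as well (log2 fold changes -1.56 ± 0.21 and -1.23 ± 0.28). JMT, the methyltransferase, and a JAR-like gene of the conjugating enzyme family also fell, to 2.31, 1.96 and 1.67 and 39.2, 38.7 and 40.3 CPM at 200CU, against 7.02, 7.10 and 6.49 and 91.1, 89.5 and 91.2 CPM at Pre0CU. The 5 LOX-like genes with neighbouring IDs did not move together: LOX-likeA was called higher (86.7 ± 9.36 CPM at 200CU and 42.6 ± 2.3 CPM at Pre0CU, SD, n = 3 each, log2 fold change 1.02 ± 0.071 (SE), adjusted p = 6.8e-08), and LOX-likeB to LOX-likeE had log2 fold changes of 0.24, -0.43, 0.40 and 0.41 without a call. JOX1, an oxidase that removes JA, fell by 1.85 on the log2 scale.

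The 200CU libraries differed from each other in these JA genes. In 10 of the 14 JA genes called lower, library 1 of 200CU was the lowest and library 3 the highest, which held for 32.6% of all genes called lower and for 23.2% of all genes tested. CYP94C, which oxidises the JA conjugate, had 1.53, 13.7 and 32.6 CPM at 200CU, against 20.8, 20.6 and 22.3 CPM at Pre0CU, so that Pre0CU lay inside the range of 200CU, and JAZ8 had 9.93, 27.9 and 50.2 CPM at 200CU, against 51.5, 52.1 and 61.2 CPM at Pre0CU. Without library 3 of 200CU both were called lower, CYP94C at a log2 fold change of -1.48 and JAZ8 at -1.54, and the list then had 16 genes lower. Without library 1 it had 14. The floral gene LFY had the same order, with 3.74, 7.53 and 15.4 CPM at 200CU, against 2.95, 3.86 and 3.04 CPM at Pre0CU, and without library 1 of 200CU it was called higher, at a log2 fold change of 1.80. What sets this order was not tested.

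**Figure D4:**
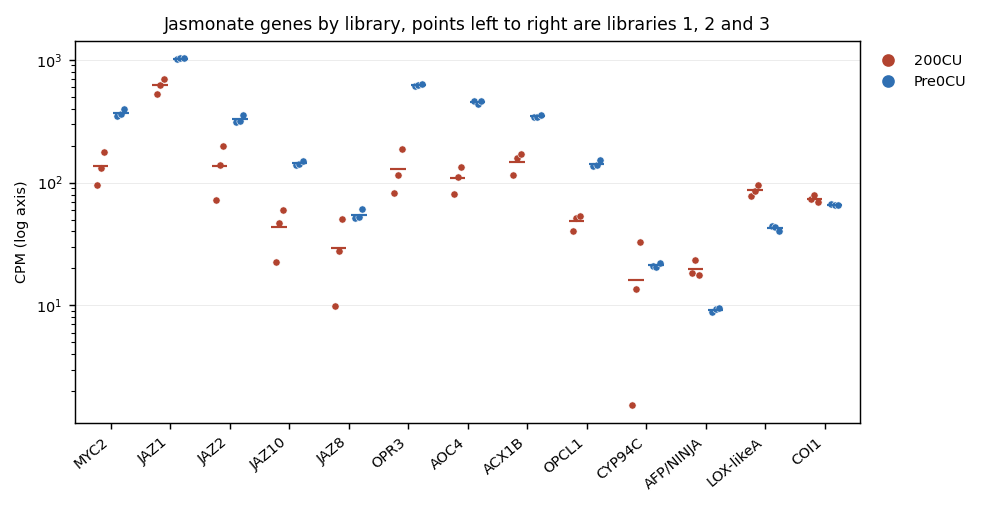
CPM on a log axis of 13 JA genes chosen for display after their values were seen, with each point 1 library, points in the order of libraries 1, 2 and 3, the line the mean, red 200CU and blue Pre0CU. The Pre0CU points lie close together, and among the 200CU points of MYC2, JAZ2, JAZ10, JAZ8, OPR3, AOC4 and CYP94C library 1 is the lowest and library 3 the highest.

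Of the 6 shoot meristem genes 4 fell, STM and KNAT1 by more than 5-fold, and 2 rose, whereas the floral meristem genes were not called in the fit of 12 libraries. The study's meristem and flowering list of 23 genes had 8 called lower (34.8%, beside 13.6% of all genes tested) and 5 higher (21.7%, beside 8.82%), with a median log2 fold change of 0.044. STM (PRUPE_4G015200), a KNOX gene that keeps meristem cells undifferentiated, had 4.86, 5.28 and 5.62 CPM in 200CU libraries, against 32.8, 36.8 and 29.8 CPM in Pre0CU libraries, 6.31-fold lower (log2 fold change -2.66 ± 0.11 (SE), adjusted p = 5.5e-10). KNAT1 (PRUPE_1G416700), another class I KNOX gene, had 28.6, 28.4 and 27.5 CPM in 200CU libraries, against 151, 149 and 138 CPM in Pre0CU libraries (log2 fold change -2.37 ± 0.13 (SE), adjusted p = 8.3e-09). The remaining KNOX genes KNOX-A and KNOX-B were lower by less, with log2 fold changes of -0.83 ± 0.18 and -0.62 ± 0.094. KNAT7, a KNOX gene of the other class that is known from secondary walls, was higher (73.5, 73.0 and 70.8 CPM at 200CU, against 44.2, 48.6 and 50.1 CPM at Pre0CU, log2 fold change 0.60 ± 0.058 (SE), adjusted p = 1.4e-06), as was the co-repressor TPR4 (0.73 ± 0.094). Peptide and WOX genes of the shoot and lateral meristems were mostly lower, in 4 of 5 cases. CLAVATA3/ESR had 21.2, 26.9 and 23.1 CPM at 200CU, against 49.4, 50.3 and 46.8 CPM at Pre0CU (log2 fold change -1.04 ± 0.11 (SE), adjusted p = 3.1e-06), and WOX had 2.95, 3.77 and 3.04 CPM at 200CU, against 16.2, 17.8 and 15.1 CPM at Pre0CU (log2 fold change -2.33 ± 0.17 (SE), adjusted p = 1.1e-07). WOX13 and PRS fell by 1.51 and 0.66 on the log2 scale, while WOX1 was higher (log2 fold change 0.60 ± 0.16).

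Of the 4 floral meristem genes, 0 were called by edgeR, with 2 at an unadjusted p below 0.05, of which AGL20A missed the fold threshold. LFY, which sets floral identity, had a log2 fold change of 1.44 ± 0.60 (adjusted p = 0.07) on the levels given above. It was called higher in a fit of only the 6 libraries compared (1.44 ± 0.42, adjusted p = 0.019) and in one without the 475CU group (1.44, adjusted p = 0.0076), so that its call depended on the libraries fitted. The 475CU libraries, part of the fit of 12, had 31.7, 30.2 and 4.02 CPM of LFY. AGL79 had 6.91, 8.62 and 14.2 CPM at 200CU, against 12.5, 12.6 and 11.8 CPM at Pre0CU. AGL20A, a relative of the flowering integrator SOC1, was not called (586, 551 and 618 CPM at 200CU, against 463, 449 and 468 CPM at Pre0CU, log2 fold change 0.35). The 4 FRIGIDA-like genes had log2 fold changes between -0.012 and 0.37 without a call. BBx14/BBX15 and CO/COL1/COL2-B, both of the CONSTANS-related zinc finger families, were higher (log2 fold changes 0.66 ± 0.18 and 0.51 ± 0.073). CLF, a Polycomb methyltransferase, was not called (0.33 ± 0.068). Over all 101 genes of the lists named by ID, 40 were lower and 19 higher, beside 13.6% and 8.82% of all genes tested. These lists were compiled by the study on these buds, and their directions are no independent evidence.

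Further gene families could be read from descriptions of 1561 genes, which come from a co-expression module that the study built on vegetative bud libraries including these, and which was at hand only in part. That module is itself lower at 200CU, since 37.4% of its described genes were called lower and 8.46% higher (median log2 fold change -0.31), and this is the background for each family. The study reports a negative correlation of the module with chilling, so a fall of its members is no independent evidence. Family members outside the module were not counted. The families were chosen with their values or earlier results known. Among 123 transcription factors, 59 were lower and 13 higher. WRKY factors, known from defence and senescence, had 10 of 16 lower and 1 higher (median -0.79). A WRKY53 homologue (PRUPE_2G185100) had 19.9, 35.6 and 59.4 CPM in 200CU libraries, against 139, 146 and 151 CPM in Pre0CU libraries (log2 fold change -1.92 ± 0.26 (SE), adjusted p = 3.5e-05), and a WRKY40 homologue (PRUPE_3G098100) had 21.2, 36.7 and 65.9 CPM at 200CU, against 119.5, 124 and 134 CPM at Pre0CU (log2 fold change -1.61 ± 0.28 (SE), adjusted p = 3.6e-04). In both, library 1 of 200CU was again the lowest and library 3 the highest. NAC factors had 11 of 16 lower and 1 higher (median -0.80), bHLH factors 7 of 16 lower and 5 higher, and MYB factors 8 of 18 lower and 0 higher. Of the 16 NAC factors, 13 have IDs close together, from PRUPE_2G201200 to PRUPE_2G204700. These may not all be separate measurements, which was not tested, and their log2 fold changes ran from -1.27 (PRUPE_2G202900) to 0.71 (PRUPE_2G204700).

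DREB factors, relatives of the cold and drought regulators of Arabidopsis, could be counted only among the described genes. All 5 found there were lower, beside 37.4% of all described genes. The one whose closest Arabidopsis relative is CBF4 (PRUPE_2G289500) had 2.91, 8.31 and 22.1 CPM at 200CU, against 36.1, 37.8 and 42.0 CPM at Pre0CU (log2 fold change -1.80 ± 0.53 (SE), adjusted p = 0.013), with log2 fold changes of -1.34 without library 1 of 200CU, -2.79 without library 3 and -1.63, no longer called, without library 2. Its neighbour PRUPE_2G289600 had 2.05, 3.69 and 4.62 CPM at 200CU, against 26.7, 25.9 and 27.0 CPM at Pre0CU (log2 fold change -2.94 ± 0.20 (SE), adjusted p = 6.3e-08). The clock component ELF4 (PRUPE_2G249800), which acts in the evening in Arabidopsis, had 13.5, 13.7 and 12.2 CPM at 200CU, against 24.4, 27.6 and 28.3 CPM at Pre0CU (log2 fold change -1.03 ± 0.085 (SE), adjusted p = 3.7e-07). Collections differ in day length, and the hour of sampling is not given in the sources used here.

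Several families of receptors and channels tied to defence had more than 2 of 3 members lower, beside 37.4% of all described genes. Effector receptors of the NLR class had 13 of 15 lower and 0 higher (median -0.65). Kinases described as rust resistance kinase Lr10 had 10 of 14 lower and 1 higher (median -1.11), and cyclic nucleotide-gated channels, which carry calcium, 10 of 13 lower and 1 higher (median -0.91). RPP13-like resistance proteins had 4 of 10 lower (40%) and 0 higher, close to the described genes as a whole, and EIX2 receptor-like proteins 6 of 9 lower and 1 higher. The channel gene PRUPE_2G223700 had 144, 136 and 148 CPM in 200CU libraries, against 509, 489.8 and 471 CPM in Pre0CU libraries (log2 fold change -1.78 ± 0.065 (SE), adjusted p = 1.3e-10). MLP-like proteins had 7 of 8 lower (median -2.25), and phloem markers, with the F-box proteins among them, 7 of 9. Many of these families lie in runs of similar copies that can share reads, so their members may not be separate measurements, which was not tested.

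Surface and wall genes had rises among them. The counts of this paragraph stand beside 8.46% higher and 37.4% lower among all described genes. All 6 genes described as BURP domain proteins were higher (median 1.42), and they too carry neighbouring IDs. In cutin, wax and suberin synthesis, 6 of 14 were higher and 3 lower. The cutin hydroxylase gene PRUPE_2G171800, a CYP86A relative, had 66.8, 63.7 and 70.6 CPM in 200CU libraries, against 34.1, 34.7 and 35.4 CPM in Pre0CU libraries (log2 fold change 0.95 ± 0.055 (SE), adjusted p = 1.1e-08), and the 3-ketoacyl-CoA synthase KCS10 homologue PRUPE_1G401500, which elongates wax precursors, had 382, 415 and 498 CPM at 200CU, against 255, 256 and 253 CPM at Pre0CU (log2 fold change 0.76 ± 0.11 (SE), adjusted p = 4.8e-05). Of 17 wall-loosening and pectin genes 4 were higher and 3 lower, with the pectate lyase PRUPE_1G060900 at 220.2, 229.8 and 252 CPM at 200CU, against 113, 114 and 109 CPM at Pre0CU (log2 fold change 1.06 ± 0.08 (SE), adjusted p = 1.5e-07). Of 12 cell cycle genes 1 was lower, the CDC20.1 homologue PRUPE_2G129000, an activator of mitotic exit (121 ± 25.3 CPM at 200CU and 177 ± 1.33 CPM at Pre0CU, SD, n = 3 each, log2 fold change -0.54 ± 0.15 (SE), adjusted p = 0.0087), and 0 were higher. It lost the call without library 1 of 200CU (log2 fold change -0.42) and in the fit of all 21 vegetative libraries (-0.51, adjusted p = 0.15).

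Sugar genes were few in the descriptions. A neutral invertase (PRUPE_1G111800), which splits sucrose in the cytosol, had 79.0, 98.0 and 137 CPM at 200CU, against 234, 228 and 235 CPM at Pre0CU (log2 fold change -1.15 ± 0.20 (SE), adjusted p = 2.8e-04), and sucrose-phosphate synthase (PRUPE_1G159700) fell by 1.05 on the log2 scale. A cell wall invertase (PRUPE_3G048300) was higher (log2 fold change 0.76 ± 0.17). Auxin genes had 5 of 9 lower (55.6%, beside 37.4% of all described genes) and 2 higher (22.2%, beside 8.46%). Among those lower were the influx carrier of the AUX1 type (PRUPE_2G247800, 45.6, 47.5 and 40.9 CPM at 200CU, against 75.5, 74.4 and 74.8 CPM at Pre0CU, log2 fold change -0.75 ± 0.068 (SE), adjusted p = 9.0e-07) and the co-repressor TPL (PRUPE_3G093100, -0.78 ± 0.058).

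**Figure D5:**
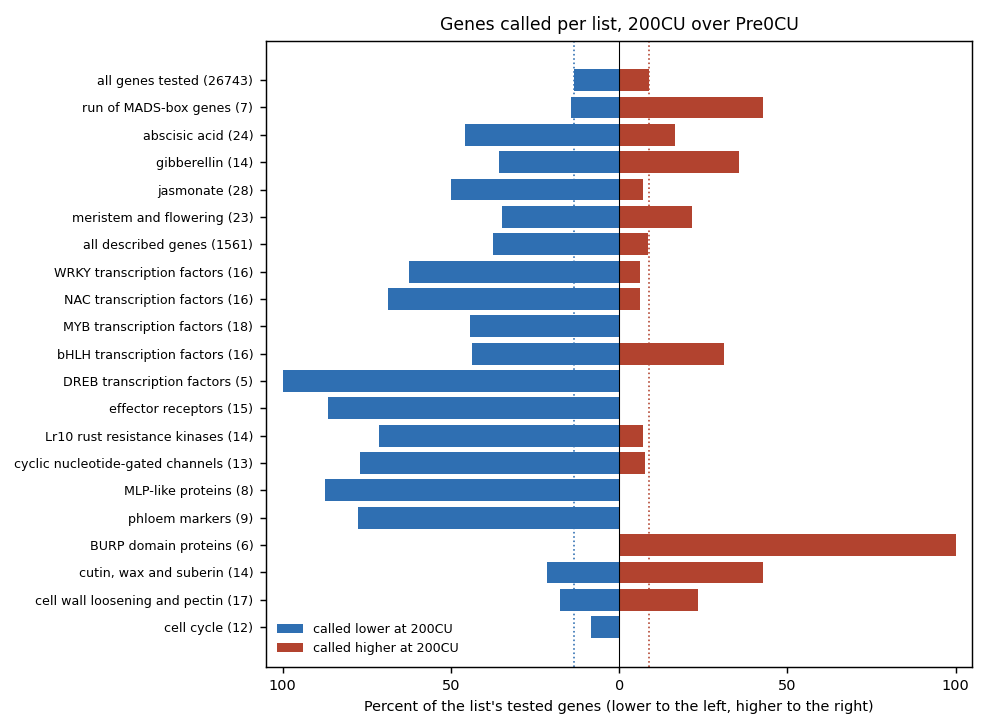
Percent of each list's tested genes (number in brackets) called lower at 200CU (bars to the left, blue) or higher (bars to the right, red), with dotted lines at the shares of all genes tested, 13.6% lower and 8.82% higher. The DREB, MLP-like, effector receptor and phloem lists reach far to the left and the BURP domain proteins far to the right, and the described genes as a whole had 37.4% lower.

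The number of called genes holds genes that are not separate measurements. Of 26689 pairs of tested genes with neighbouring IDs on a chromosome, 767 had counts within 10% of each other in each of the 12 libraries fitted, at 10 counts or more, and 1324 genes, 111 of them called, were in such pairs. Of these 1324 genes, 41 had an average log2 CPM of 3 or more, and 0 of the genes listed by ID above were among them. Across genes, the log2 fold changes of neighbouring IDs had r = 0.67 over 1436 pairs below an average log2 CPM of 0, 0.45 over 3773 pairs between 0 and 3, and 0.26 over 9062 pairs at 3 or more, where neighbours share libraries, depth and possibly reads. Of the called genes at 3 or more, 1822 of 3446 were lower (52.9%), against 1622 of 2298 (70.6%) between 0 and 3. A fit of only the genes at 3 or more called 3429, 1988 of them lower.

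Runs of neighbouring genes with one call were therefore read with their levels. Without regard to level, 51 runs of 5 or more consecutive tested IDs, with 374 genes, had one call throughout, 38 of them lower, and 147 of the 374 genes had an average log2 CPM of 3 or more. The run of 17 lower genes around the SIEVE ELEMENT OCCLUSION genes is an example, since those 3 genes had 117, 286 and 193 CPM on average at 200CU, against 685, 904 and 1893 CPM at Pre0CU, and the other 14 averaged 2.04 CPM or less at both stages. With every member at 3 or more, 5 runs of 5 or more remained, 4 higher and 1 lower. The longest had 10 higher genes (median log2 fold change 4.25) and includes PRUPE_2G139400, and 1 of them has a description, a spindle and kinetochore-associated protein 1 homologue (10.5, 13.6 and 12.0 CPM at 200CU, against 6.46, 5.56 and 5.79 CPM at Pre0CU). The run with PRUPE_1G498800 had 4 lower genes with log2 fold changes between -5.78 and -3.32, and the 4-gene run that begins with PRUPE_1G531500 held 3 IDs of the run taken as DAM genes and the next ID. Positions on the genome are not given with the files, and the order of IDs was taken as the order of genes.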

How the data were processed

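RNA-seq read counts per gene were deposited by the authors as whole numbers, unscaled. RNA was extracted with a column kit and made into stranded mRNA libraries, per the labels. Per the study's methods, external scales were removed, libraries were sequenced on an Illumina instrument, and reads were trimmed with fastp, aligned with STAR to the second version of the peach genome, freed of duplicates and counted on exons with bedtools multicov (2.30.1 per the submitters' processing notes). Removing duplicates lowers high counts, and it is not stated whether strand was used in counting, so overlapping, antisense and similar genes may share reads. All 26873 gene IDs were read, and 0 per-sample columns were left unused. Totals were 47016108 to 53645419 per library, a depth at which the spread between replicates exceeded counting error.

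edgeR 4.0.16 in R 4.3.3 was fitted to 12 vegetative libraries (4 groups of 3, 8 residual degrees of freedom) of one table, after filterByExpr (minimum count 10, 26743 genes kept), with TMM factors and Benjamini-Hochberg adjustment over all genes tested. The thresholds follow the study. ± is an SE of the fit beside a fold change. In simulated counts with known changes, checked before use, 50 of 67 genes changed 1.5-fold and 67 of 67 changed 2-fold were called in the right direction. The simulation gave every group the same spread and changed far fewer genes than were called here. These shares therefore do not carry over to genes that spread widely within 200CU.

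Genes were named by rule: the run taken as DAM genes and the SVP genes, up to 4 called members of each list with the largest change and 2 with the most reads, the 10 largest named rises and falls at an average log2 CPM of 3 or more without overlap, and the 10 called named genes with the most reads. Further genes, such as the 4 unnamed extremes and those with a wide spread, were chosen after their values were seen. The genes and lists were chosen with earlier results of these data known. Names and descriptions come from the study's tables, one of which was used in part, and 0 of the IDs matched the reference gene table, so that no sequence or position is printed. Columns of the authors' comparisons were not used. Replicates 1 to 3 are the libraries labelled A to C. Alternatives were DESeq2 1.42.0, RLE factors, other filters, thresholds and library sets, a replicate block and leaving out each library.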

Additional observations from a re-analysis of the deposited data

How the results depend on the processing

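The number of called genes depended on the threshold far more than on the fit. An absolute log2 fold above 1.4 gave 1092 genes, 283 higher and 809 lower, with 20 of the 101 genes listed by ID, against 59 as reported. No fold minimum gave 11757, 5821 higher and 5936 lower, and a test against a fold of 1.4 (glmTreat) gave 3162, 1117 higher and 2045 lower. A fold above 1.5 with an adjusted p below 0.01 left 4255, 1538 higher and 2717 lower. The share of calls that were lower was 60.6% as reported, 74.1% at an absolute log2 fold above 1.4 and 50.5% with no fold minimum. RLE factors, DESeq2, other count filters, the 6 libraries alone and all 21 vegetative libraries gave 5447 to 6107 genes. Leaving out each library in turn gave 5693 to 5945 genes, 2188 to 2479 higher and 3348 to 3672 lower, and 56 to 60 of the genes listed by ID. Deviations of same-lettered libraries had r = 0.10, -0.024 and 0.096, so the letters were not read as pairs, and the replicate block gave 5983 genes, 5875 of them shared with the fit without it. The alternatives below were chosen after seeing the data: leaving out the 475CU group gave 6024 genes, leaving out genes near equal to a neighbour gave 5907, and an average log2 CPM of 3 or more gave 3429, 1441 higher and 1988 lower. No gene was called in opposite directions under any of these settings. Single genes were followed only over the alternatives that kept the reported thresholds, not over the changed thresholds above. Of 270 called genes followed in this way, 229 kept the call under every such alternative, and of the genes listed by ID GASA6 lost it in 7 and CO/COL1/COL2-A gained it in 8. UGT71B6-likeB lost it without replicate 3 of 200CU (log2 fold change 0.48), JAZ3 without replicate 3 of Pre0CU (-0.48), and CO/COL1/COL2-B without replicate 1 or 3 of 200CU or replicate 2 of Pre0CU (0.47 to 0.49), all by the fold threshold. LFY gained it in the fits of 6 and of 9 libraries and without replicate 1 of 200CU, JAZ8 with the replicate block and without replicate 3 of 200CU, and PYL4 without replicate 1 of Pre0CU (0.59).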

Other observations

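A set of genes varied among the 200CU libraries and hardly among the Pre0CU libraries. Among 14660 genes with an average log2 CPM of 3 or more, 78 spanned more than 3-fold within 200CU and less than 1.5-fold within Pre0CU, and 0 did the reverse. In 77 of the 78, library 1 of 200CU was the lowest and library 3 the highest, and in 0 the order was opposite, although these genes were not selected on the order. The thresholds were chosen after the values were seen. Of the 78, 46 were called lower at 200CU, 8 higher and 24 not called, and 25 have a name or description. A wide spread was not limited to 200CU in all of these genes. In the 475CU libraries of that year PRUPE_3G171800 had 9.55, 11.7 and 41.0 CPM, and LFY had 31.7, 30.2 and 4.02 CPM. The WRKY18 homologue PRUPE_1G393000 had 45.2, 39.6 and 42.5 CPM there. The 78 genes were not counted by their spread at 475CU.

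The named ones include early response regulators known from Arabidopsis stress signalling. The zinc finger gene of the STZ/ZAT10 type (PRUPE_1G424300) had 51.3, 111 and 179 CPM at 200CU, against 271, 299.6 and 351 CPM at Pre0CU, and the WRKY18 homologue (PRUPE_1G393000) had 25.9, 46.9 and 87.5 CPM at 200CU, against 112, 114 and 112 CPM at Pre0CU. A gene of the IAA-amino acid hydrolase family whose relative IAR3 also acts on JA conjugates (PRUPE_1G260400) had 3.58, 14.6 and 30.2 CPM at 200CU, against 44.5, 48.5 and 50.7 CPM at Pre0CU. For these 3 genes all 200CU libraries lay below all Pre0CU libraries. A U-box ubiquitin ligase (PRUPE_3G164200) had 4.72, 14.3 and 33.5 CPM at 200CU, against 62.5, 70.0 and 83.4 CPM at Pre0CU, and the HSPRO2 homologue (PRUPE_2G247600) had 33.1, 59.1 and 104 CPM at 200CU, against 182, 187 and 213 CPM at Pre0CU.

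Wall and growth genes had the same order with Pre0CU inside the range of 200CU or below it. PHOSPHATE-INDUCED 1, related to the EXORDIUM protein of Arabidopsis, had 129, 429 and 687 CPM at 200CU, against 253, 271 and 306 CPM at Pre0CU for PRUPE_1G520600. The xyloglucan endotransglucosylase gene PRUPE_3G171800 had 7.04, 29.0 and 69.9 CPM at 200CU, against 27.1, 30.4 and 32.0 CPM at Pre0CU, and its close neighbour PRUPE_3G171700 had 4.76, 21.5 and 44.2 CPM at 200CU, against 10.5, 10.8 and 11.1 CPM at Pre0CU. Neither PHOSPHATE-INDUCED 1 nor PRUPE_3G171800 was called, with log2 fold changes of 0.59 ± 0.47 and 0.24 ± 0.62. The wall genes are similar copies with neighbouring IDs, and reads may be shared among them. JAZ8, CYP94C and LFY are also among the 78.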
